A study of Rattus norvegicus with 12 samples.

Results

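The genes described here are those that medium from alpha-synuclein-making neuronal cells raised at least 2-fold in microglia both after 6 h and after 24 h. They were chosen on the measured values: the deposited log2 signals of the 12 arrays were quantile normalized together, the mean of the control arrays was taken from the mean of the alpha-synuclein arrays at each time, and a probe was a member when this difference was 1 or more at both times. By this rule 185 of 22523 probes were members, and all 185 passed the filter on dim probes (a signal over background on 3 or more arrays). Of the members, 139 probes carried the symbol of 1 gene and stood for 138 genes, and 46 had no symbol in the array annotation.

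The cells were microglia, which are the brain's own macrophages, in primary culture from the rat. They received medium in which SH-SY5Y cells, of a human neuroblastoma line that can be differentiated into neuron-like cells, had been kept. Those donor cells had been infected, at a multiplicity of infection of 100, with an adenoviral vector for human alpha-synuclein (the medium is called aSCM) or for the bacterial enzyme beta-galactosidase (LZCM, the control), had conditioned serum-free medium for 18 h, and the medium was given as a 5-fold concentrate. There were 4 groups of 3 Illumina bead arrays, LZCM and aSCM at 6 h and at 24 h, all on total RNA. The labels' protocol also lists a vector for a tagged alpha-synuclein without saying whether any array used that medium, and the labels do not say whether the 3 arrays of a group came from separate cultures, so the p-values measure only the spread between these arrays, which may be technical. Whole media were compared, so each difference is that between everything the cells released under either vector.

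Toll-like receptors sit on microglia and bind microbial products and some proteins released by stressed cells. Their adaptors and kinases free the transcription factor NF-kappaB, which switches on cytokines, chemokines and inflammatory enzymes within hours, together with the proteins that later switch the response off, such as the inhibitor IkappaB-alpha, the cytokine interleukin-10 and enzymes that destroy cytokine messenger RNA. The title of the series names TLR2 as the receptor the study addressed.

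Before the results, the state of the cultures is given in short. Signals of 11370 to 12600 probes lay above background on each array, and arrays of 1 group correlated at 0.996 to 0.998. Of 14 microglia and macrophage genes with a probe, 13 were above background on all 12 arrays. Their mean level per array was 11.91 to 11.96 log2 units in LZCM and 11.17 to 11.19 in aSCM at 6 h. At 24 h it was 11.52 to 11.55 in LZCM and 11.11 to 11.20 in aSCM. Other cells were also present in the signal: 5 of 7 astrocyte genes and 5 of 8 genes of the oligodendrocyte lineage were above background on all 12 arrays, Gfap and Olig1 among them. So were 6 of 8 neuronal genes, Gad1 among them. The mean level of the astrocyte genes was 9.07 to 9.10 in LZCM and 8.71 to 8.72 in aSCM at 6 h, and 9.89 to 9.99 in LZCM and 8.40 to 8.48 in aSCM at 24 h; for the oligodendrocyte lineage the same ranges were 9.34 to 9.45, 8.84 to 8.99, 9.93 to 10.16 and 8.62 to 8.72. Neuronal genes lay between 7.72 and 8.22, proliferation genes ran from 9.82 to 10.39 except in aSCM at 24 h, where they lay at 9.13 to 9.19, genes of endothelial cells and fibroblasts lay between 6.97 and 7.38, and lymphocyte genes between 6.64 and 6.80, near background. None of these marker genes was a member, and the part of the shift in other cells in the results below was not tested. In RNA from a whole culture, fewer cells of a type and less RNA per cell cannot be told apart.

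At 6 h the members were a median 4.07-fold above control (median log2 difference 2.03, from 1.00 to 6.65), and at 24 h a median 3.60-fold (1.85, from 1.00 to 6.16). Since these differences chose the members, they are given as a description. The 3 aSCM arrays lay above the 3 LZCM arrays at both times for all 185 members, and for 1808 of the 13252 tested probes. Of all probes, 18.4% did so at 6 h and 21.6% at 24 h. A difference of 2-fold or more upwards was held by 2.73% of all probes at 6 h and 2.17% at 24 h. The measured difference was at least 4-fold at both times for 58 members, at least 10-fold for 17 and at least 16-fold for 8. Where no LZCM array of a time was above background, the difference is known only as a lower bound; at these bounds 56, 15 and 7 members reached the same folds, 180 reached 2-fold at both times, and the median at 24 h was 3.55-fold. The effect of the medium was not constant over time. This change is the 24 h difference minus the 6 h difference, and the rule holds both values at 1 or more. The choice of members thus limits the changes that can occur, and the counts of calls are given as a description. In a limma fit of all 12 arrays, the effect was smaller at 24 h than at 6 h for 87 members (47%; 25.1% of all tested probes) and larger for 52 (28.1%; 26.5% of all tested probes), and for 46 the change was not called.

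**Figure D1:**
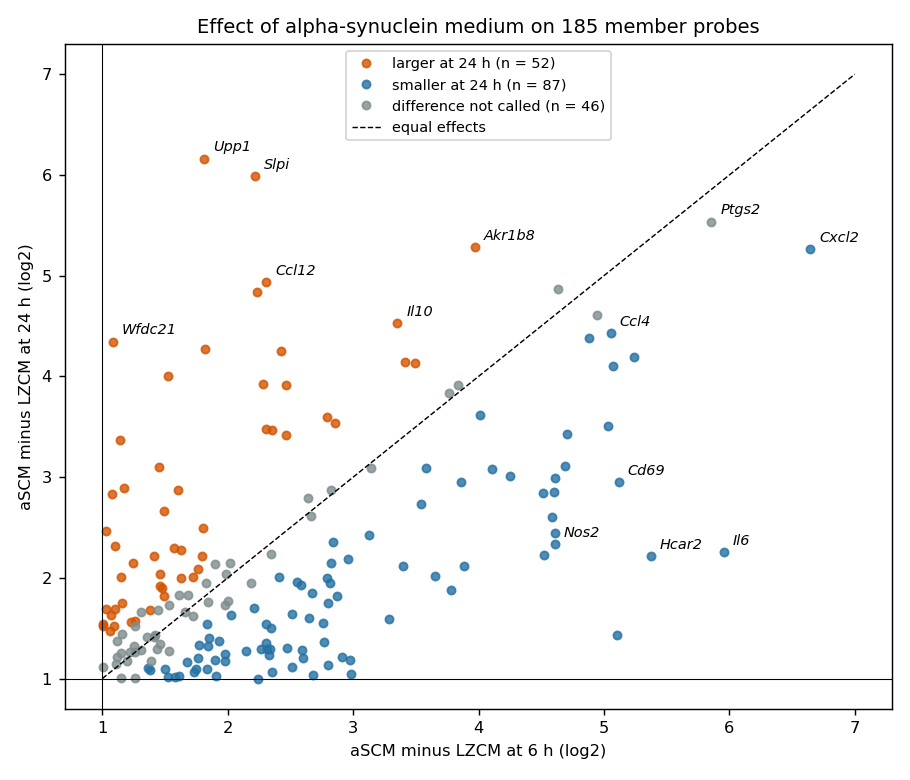
Effect of alpha-synuclein medium on each of the 185 member probes, as aSCM minus LZCM (log2, difference of means of 3 arrays), at 6 h on the horizontal axis and at 24 h on the vertical axis. The thin lines mark the thresholds of the rule at 1, and the dashed line marks equal effects. Colours give the limma call of the change: 52 probes, with Upp1 and Slpi at the top, had a larger effect at 24 h, 87, with Il6 and Hcar2 at the lower right, a smaller effect, and 46 lie close to the dashed line without a call.

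The strongest sustained induction, ranked by the smaller of the 2 differences, was that of Ptgs2, the inducible cyclooxygenase that starts prostaglandin synthesis. Ptgs2 read 8.97, 9.03 and 9.53 on the LZCM arrays and 15.05, 14.95 and 15.09 on the aSCM arrays at 6 h, and 8.43, 8.30 and 8.33 against 13.81, 13.84 and 14.02 at 24 h, all in log2 units. The groups were far apart at both times, a 57.9-fold and a 46.4-fold difference. Both media lost Ptgs2 signal over time, and the change of the effect, -0.32 ± 0.154 (SE, adjusted p = 0.0919), was not called; with scaling to the 75th percentile it was -0.44 (adjusted p = 0.0218) and with cyclic loess -0.61 (adjusted p = 0.00297), which were called. Cxcl2, a chemokine that draws neutrophils, had the largest difference of any member at 6 h. It read 8.71, 8.64 and 9.32 in LZCM and 15.56, 15.48 and 15.56 in aSCM at 6 h, a 100.2-fold difference, and 7.95, 7.67 and 7.80 against 13.03, 13.01 and 13.16 at 24 h, 38.3-fold. The effect on Cxcl2 shrank by 24 h, with a change of -1.39 ± 0.177 (SE, adjusted p = 2.3e-06). Of the 12 genes that lead this ranking, the others were Ccl4, Il1a, Adora2a, Akr1b8, Plet1, Ccl7, Il10, Birc3, Acod1 and Cd69.

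**Figure D2:**
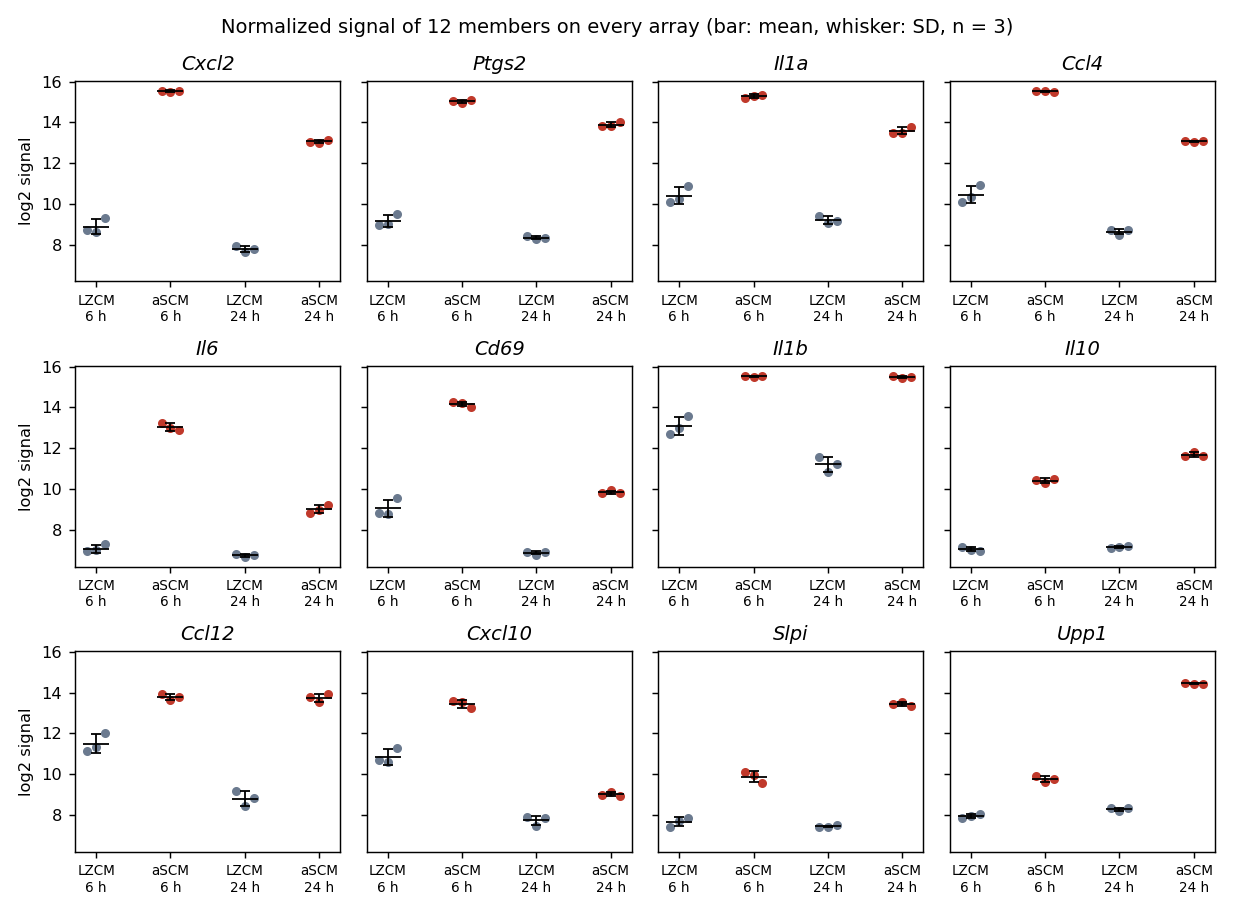
Quantile-normalized log2 signal of 12 members on every array, with 1 point per array, the mean as a bar and the SD as whiskers (n = 3 arrays per group), LZCM in grey and aSCM in red. In all 12 panels the aSCM points lie above the LZCM points of the same time; Il6, Cd69 and Cxcl10 lie far lower in aSCM at 24 h than at 6 h, while Slpi and Upp1 lie far higher.

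Among the receptors and adaptors of the Toll-like receptor pathway, 3 of the 11 genes with a probe were members. These were Cd14, the co-receptor that hands lipid ligands to TLR2 and TLR4, Tlr7, an endosomal receptor for single-stranded RNA, and Irak3, a kinase-like protein that blocks signalling below the receptors. Over the list, 6 genes were called higher and 3 lower in aSCM at 6 h, where 24.4% of tested probes were higher and 30.1% lower, and 10 were higher and 0 lower at 24 h, where 28.8% were higher and 27.6% lower. The median difference of the list, taken for this and the later lists over the tested genes, was 0.35 at 6 h and 0.92 at 24 h, against -0.01 and 0.03 over all tested probes. Tlr2 itself, the receptor in the title, was just outside the rule, with a difference of 1.03 at 6 h and 0.92 at 24 h.

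Cd14 was among the brightest probes on the arrays. It read 14.18, 14.18 and 14.37 in LZCM and 15.41, 15.26 and 15.27 in aSCM at 6 h, and 12.33, 12.11 and 12.16 in LZCM against 15.07, 15.09 and 14.95 in aSCM at 24 h. Its aSCM level fell little (-0.28 ± 0.0781 (SE, adjusted p = 0.00471)) and its LZCM level fell more (-2.04 ± 0.0781 (SE, adjusted p = 1.35e-12)), so the gap between the media widened from 2.11-fold to 7.15-fold. For 10 members, Cd14 among them, at least 1 aSCM array gave a signal within 0.5 log2 units of that array's highest, where differences can be compressed; the others were Il1b, Il1a, Cxcl1, Cxcl2, Ccl2, Ccl3, Ccl4, Prdx5 and Bcl2a1. Irak3, the inhibitor, read 7.97, 7.78 and 8.04 against 9.03, 9.19 and 9.06 at 6 h and 7.25, 7.27 and 7.09 against 10.13, 10.14 and 10.04 at 24 h. Here the aSCM level itself rose with time (1.01 ± 0.0774 (SE, adjusted p = 1.54e-09)) and the LZCM level fell (-0.72 ± 0.0774 (SE, adjusted p = 4.81e-07)), and the effect grew by 1.73 ± 0.109 (SE, adjusted p = 2.22e-10). Tlr7 was 2.70-fold and then 2.45-fold higher in aSCM, and its level fell in both media, by 1.14 in LZCM and by 1.28 in aSCM; the change of the effect was -0.14 ± 0.0963 (SE, adjusted p = 0.251), and it was called only with cyclic loess among the normalizations tried, at -0.32 (adjusted p = 0.0114).

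Of 11 genes for NF-kappaB subunits, their inhibitors and kinases with a probe, 5 were members, 9 were called higher and 1 lower at 6 h, and 8 higher and 0 lower at 24 h. The list's median difference was 1.00 at 6 h and 0.91 at 24 h. For 2 members the change of the effect was not called, for 2 the effect was smaller at 24 h and for 1 it was larger. Nfkbia, which encodes IkappaB-alpha, read 12.87, 12.95 and 13.12 in LZCM and 14.83, 14.84 and 14.81 in aSCM at 6 h, and 12.24, 12.09 and 11.96 against 13.84, 13.86 and 13.85 at 24 h. Both media were lower at 24 h by nearly the same amount, -0.88 ± 0.0772 (SE, adjusted p = 3.43e-08) in LZCM and -0.97 ± 0.0772 (SE, adjusted p = 2.52e-09) in aSCM, and the change of the effect was -0.09 ± 0.109 (SE, adjusted p = 0.544). Nfkbiz, whose product IkappaB-zeta works in the nucleus as a partner of NF-kappaB at secondary response genes, was 7.09-fold and then 7.33-fold higher, a change of 0.05 ± 0.135 (SE, adjusted p = 0.796), with aSCM arrays at 10.75, 10.78 and 10.41 and then 10.43, 10.44 and 10.11.

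The effects on the subunit genes were smaller at 24 h. Nfkb1, which encodes p105 and p50, went from 6.06-fold (7.74, 7.76 and 7.65 in LZCM, 10.26, 10.25 and 10.45 in aSCM) to 2.31-fold (7.42, 7.35 and 7.34 in LZCM, 8.54, 8.54 and 8.65 in aSCM), a change of -1.39 ± 0.0981 (SE, adjusted p = 8.99e-10). Nfkb2, which encodes p100 and p52, went from 4.43-fold to 2.42-fold, a change of -0.87 ± 0.106 (SE, adjusted p = 1.24e-06). Tnip1, an inhibitor that works with the ubiquitin-editing enzyme A20, was the member closest to the threshold at 6 h, with a difference of 1.00, and reached 1.52 at 24 h, a change of 0.52 ± 0.107 (SE, adjusted p = 0.000442). Taking the lower of the 6 h and 24 h differences, the members just inside the rule were Rhbdf2 at 1.01, Tnip1 at 1.00 and Slc41a2 at 1.00, and the probes just outside were Mob3a at 0.999 and a pair without a symbol at 0.996 and 0.994.

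The promoter windows of the members were read from RefSeq (build GRCr8, 250 bases before to 50 bases after the first listed start of each gene). A window was given for 105 of the 138 member genes, and 19 of them (18.1%) held the NF-kappaB consensus on either strand, against 382 of 7521 genes of tested probes (5.08%) and 1142 of 27457 promoters in the table (4.16%). The share was 6.6% of 288 genes raised at least 2-fold at 6 h alone and 6.9% of 174 raised at 24 h alone. The AP-1 site TGANTCA was in 17.1% of member promoters, in 4.86% of those raised at 6 h alone, in 12.6% of those raised at 24 h alone and in 5.33% of those of tested probes. TATAAA was in 20%, 10.8%, 8.62% and 7.96% of the same sets, the paired interferon element (GAAA, any 2 bases and GAAA again) in 7.62%, 5.21%, 8.05% and 3%, and the cyclic AMP element TGACGTCA in 3.81%, 4.17%, 2.87% and 3.19%. Over all promoters the shares were 7.33% for AP-1, 14.3% for TATAAA, 3.77% for the interferon element and 1.91% for the cyclic AMP element. These motifs were searched on both strands; they share no common stretch, but matches may overlap each other. A match is a stretch of letters in a short window and not a measured binding site.

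**Figure D3:**
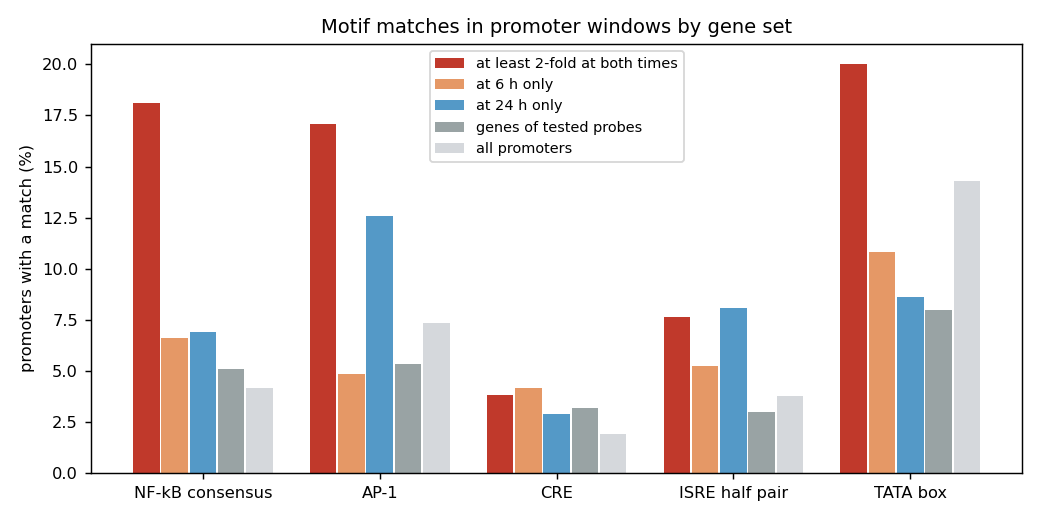
Share of promoter windows with at least 1 match (%), for 5 motifs and 5 gene sets: genes raised at least 2-fold at both times (105 promoters), at 6 h only (288), at 24 h only (174), genes of all tested probes (7521) and all promoters in the table (27457). Bars start at 0; the NF-kappaB bar of the genes raised at both times stands at 18.1% against 4.16% to 6.9% in the other sets.

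The stretches below are shown because they carry the NF-kappaB match, in capitals, of 9 members of this pathway and its chemokine and cytokine outputs; overlapping matches on both strands are joined, and each stretch runs 5′ to 3′ on the gene's strand and ends before the start site. Their places in GRCr8 are chr6:78597074-78597123 (minus strand) for Nfkbia, chr11:58251688-58251720 (plus strand) for Nfkbiz, chr1:255108334-255108373 (plus strand) for Nfkb2, chr10:39585016-39585067 (minus strand) for Tnip1, chr14:17467299-17467349 (minus strand) for Cxcl2, chr14:17479375-17479425 (minus strand) for Cxcl1, chr14:15988859-15988908 (plus strand) for Cxcl10, chr14:15973634-15973683 (plus strand) for Cxcl11 and chr4:5894614-5894663 (minus strand) for Il6.
Nfkbia: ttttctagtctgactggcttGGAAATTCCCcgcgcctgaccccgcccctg
Nfkbiz: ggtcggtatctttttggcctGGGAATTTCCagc
Nfkb2: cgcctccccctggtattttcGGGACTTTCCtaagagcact
Tnip1: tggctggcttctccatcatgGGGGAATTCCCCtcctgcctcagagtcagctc
Cxcl2: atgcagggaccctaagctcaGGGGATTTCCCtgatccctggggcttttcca
Cxcl1: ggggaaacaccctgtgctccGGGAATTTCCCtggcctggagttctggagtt
Cxcl10: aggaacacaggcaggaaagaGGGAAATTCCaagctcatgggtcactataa
Cxcl11: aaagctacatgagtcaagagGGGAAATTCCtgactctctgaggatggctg
Il6: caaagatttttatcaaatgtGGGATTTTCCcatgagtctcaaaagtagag
Members with these stretches had different time courses: the change of the effect was not called for Nfkbiz and Nfkbia, Tnip1 gained, and Cxcl2, Cxcl1, Cxcl10, Cxcl11, Nfkb2 and Il6 lost part of theirs. The Cxcl2 and Cxcl1 stretches lie 94 and 104 bases upstream of the start at their far ends, and the Nfkbiz and Nfkb2 matches within 40 bases of it.

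Of 17 cytokine genes with a probe, 16 were tested, 14 were called higher and 0 lower in aSCM at 6 h, and 10 were higher and 1 lower at 24 h. The list's median difference was 2.44 at 6 h and 1.40 at 24 h. The 7 members split by direction of change: for Il1b, Il1rn and Il10 the effect was larger at 24 h, and for Il1a, Il6, Tnf and Csf3 it was smaller.

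Il1b encodes interleukin-1 beta, the inflammatory cytokine that is cleaved by the inflammasome. Its probe read 12.72, 12.98 and 13.59 in LZCM and 15.52, 15.49 and 15.55 in aSCM at 6 h, and 11.59, 10.85 and 11.23 against 15.52, 15.43 and 15.49 at 24 h. The change in aSCM, at the top of the arrays' range, was not called (-0.04 ± 0.17 (SE, adjusted p = 0.859)), and the LZCM level fell (-1.87 ± 0.17 (SE, adjusted p = 5.68e-08)). The effect therefore went from 5.38-fold to 19.1-fold, a change of 1.83 ± 0.24 (SE, adjusted p = 3.21e-06), and both folds may be understated by the ceiling. Il1rn, the receptor antagonist that blocks interleukin-1, read 8.84, 8.80 and 9.004 against 11.47, 11.28 and 11.29 at 6 h and 7.47, 7.59 and 7.48 against 11.42, 11.42 and 11.44 at 24 h. Well below the ceiling, its aSCM change was not called either (0.08 ± 0.0721 (SE, adjusted p = 0.347)), and its LZCM level fell (-1.37 ± 0.0721 (SE, adjusted p = 5.98e-11)). Il1a, the gene next to Il1b on chromosome 3, lost signal in both media and went from 29.4-fold to 20.8-fold; its change of -0.50 ± 0.202 (SE, adjusted p = 0.0457) was not called with normexp background correction (-0.42, adjusted p = 0.187), with unnormalized values (-0.49, adjusted p = 0.0844) or in the authors' series matrix (-0.44, adjusted p = 0.0606).

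Il10, which restrains inflammatory gene expression, was the only 1 of the 7 cytokine members whose aSCM level was called higher at 24 h. It read 7.17, 7.03 and 6.99 in LZCM and 10.45, 10.29 and 10.51 in aSCM at 6 h, and 7.12, 7.15 and 7.22 against 11.64, 11.81 and 11.62 at 24 h. The change in LZCM was not called (0.10 ± 0.076 (SE, adjusted p = 0.339)) and the aSCM level rose (1.28 ± 0.076 (SE, adjusted p = 4.28e-11)), and the difference went from 10.2-fold to 23.1-fold. Il6 took the opposite course and had the largest measured loss of effect of any named member. It read 6.95, 6.996 and 7.30 against 13.25, 12.98 and 12.89 at 6 h, a 62.1-fold difference, and 6.82, 6.65 and 6.80 against 8.82, 8.998 and 9.21 at 24 h. None of the LZCM arrays was above background at 24 h, so the difference there was at least 4.30-fold. The measured change of the effect was -3.70 ± 0.154 (SE, adjusted p = 8.19e-13), and the loss may be smaller than that, since the later difference is a lower bound. Tnf, whose product is tumour necrosis factor, went from 14.8-fold to 4.33-fold, with aSCM arrays at 11.24, 10.94 and 11.01 and then 9.29, 9.07 and 8.95. Csf3, the granulocyte colony-stimulating factor, went from 22.96-fold to 4.67-fold, with aSCM arrays at 11.63, 11.38 and 11.54 and then 9.02, 9.11 and 9.26. The changes of the effects on Tnf and Csf3 were -1.77 ± 0.131 (SE, adjusted p = 1.78e-09) and -2.30 ± 0.133 (SE, adjusted p = 6.12e-11).

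Chemokines gave 8 members among 21 genes with a probe, of which 18 were tested. Over the list 13 were called higher and 1 lower at 6 h, and 11 higher and 2 lower at 24 h, with a median difference of 2.62 at 6 h and 0.98 at 24 h over the 18. A further chemokine outside the list, Ccl12, was a member. The chemokines that recruit monocytes through the receptor CCR2 gained or had no called change, and those that bind CXCR3 or draw neutrophils lost part of their effect.

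Ccl2 read 12.16, 11.99 and 12.42 in LZCM and 14.85, 14.82 and 14.82 in aSCM at 6 h, and 12.44, 12.32 and 12.39 against 15.11, 15.16 and 15.27 at 24 h. Its effect, 6.25-fold and 6.94-fold, changed by 0.15 ± 0.122 (SE, adjusted p = 0.33), which was not called. Ccl7, which lies beside Ccl2 on chromosome 10, read 14.22, 14.03 and 14.32 in aSCM at 6 h and 14.89, 14.999 and 15.14 at 24 h, over LZCM arrays at 10.41, 10.64 and 11.29 and then 10.82, 10.97 and 10.80. Its level rose in aSCM (0.82 ± 0.148 (SE, adjusted p = 9.31e-05)) and its effect grew from 10.6-fold to 17.7-fold. Ccl12, the third gene of that group, read 11.13, 11.32 and 12.02 against 13.95, 13.65 and 13.79 at 6 h and 9.16, 8.45 and 8.82 against 13.79, 13.55 and 13.91 at 24 h. Its LZCM level fell (-2.68 ± 0.182 (SE, adjusted p = 1.47e-09)), the change in aSCM was not called (-0.05 ± 0.182 (SE, adjusted p = 0.846)), and its effect went from 4.95-fold to 30.7-fold, a change of 2.63 ± 0.258 (SE, adjusted p = 7.89e-08). In the control medium the change over time was called for Ccl12 and not for Ccl2 or Ccl7.

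Ccl3 and Ccl4, which encode macrophage inflammatory proteins, are neighbours too. Ccl3 went from 6.92-fold to 12.1-fold, a gain of 0.81 ± 0.152 (SE, adjusted p = 0.000186). Ccl4 read 10.11, 10.34 and 10.94 against 15.54, 15.52 and 15.49 at 6 h and 8.72, 8.504 and 8.70 against 13.09, 13.04 and 13.09 at 24 h. Its signal fell in both media, and the change of its effect, -0.62 ± 0.192 (SE, adjusted p = 0.0103), was not called with normexp background correction (-0.46, adjusted p = 0.124). Cxcl1, which like Cxcl2 draws neutrophils, was the member with the largest rise in LZCM. It read 10.52, 10.64 and 11.28 in LZCM at 6 h and 11.92, 11.995 and 11.82 at 24 h, a rise of 1.10 ± 0.13 (SE, adjusted p = 1.57e-06), under aSCM arrays at 15.47, 15.45 and 15.32 and then 14.76, 14.78 and 14.75. The effect on Cxcl1 went from 24.3-fold to 7.22-fold.

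Cxcl10 and Cxcl11 encode interferon-inducible ligands of CXCR3 and lie side by side on chromosome 14. Cxcl10 read 10.70, 10.58 and 11.30 in LZCM and 13.61, 13.52 and 13.24 in aSCM at 6 h, and 7.90, 7.47 and 7.85 against 9.003, 9.12 and 8.95 at 24 h. It had the largest fall over time of any named member in each medium, -3.12 ± 0.148 (SE, adjusted p = 1.76e-11) in LZCM and -4.43 ± 0.148 (SE, adjusted p = 1.19e-14) in aSCM. By 24 h the aSCM arrays were lower than the LZCM arrays had been at 6 h, although the aSCM arrays stayed 2.43-fold above the LZCM arrays of their own time. Cxcl11 did the same, with means of 9.38 in LZCM and 12.67 in aSCM at 6 h and of 7.14 and 8.73 at 24 h. This crossing was seen in 7 of 185 members, namely Cxcl10, Cxcl11, Icam1, Rtp4 and 3 probes without a symbol; Rtp4 is named because of that count. For the other 178 the 24 h aSCM mean stayed above the 6 h LZCM mean.

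The list of prostaglandin, nitric oxide and oxidative response genes gave 8 members among 15 genes with a probe, of which 14 were tested. Of these, 12 were called higher and 2 lower at 6 h, and 13 higher and 1 lower at 24 h. The list's median difference was 2.52 at 6 h and 1.29 at 24 h. Beside Ptgs2 the members were Nos2, Gch1, Acod1, Sod2, Slc7a11, Txnrd1 and Arg1. Nos2, the inducible nitric oxide synthase, read 6.71, 6.86 and 7.01 in LZCM and 11.38, 11.19 and 11.83 in aSCM at 6 h, and 6.47, 6.64 and 6.54 against 8.61, 8.85 and 9.19 at 24 h. With no LZCM array above background at 24 h, the later difference was at least 3.95-fold. Only 1 LZCM array was above background at 6 h, so the earlier difference may be understated too. The effect changed by -2.27 ± 0.199 (SE, adjusted p = 1.77e-08) as measured, and the loss may be smaller or larger than that. Arg1, which competes with Nos2 for arginine, also had a smaller effect at 24 h, from 6.40-fold to 2.06-fold, while Gch1, which makes the tetrahydrobiopterin that Nos2 needs, went from 7.23-fold to 11.6-fold, a gain of 0.69 ± 0.131 (SE, adjusted p = 0.000209).

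Acod1, which makes itaconate in activated macrophages, read 9.46, 9.39 and 10.18 against 13.79, 13.86 and 13.69 at 6 h and 7.22, 7.13 and 7.07 against 10.21, 10.21 and 10.23 at 24 h. Its level fell in both media, by 2.54 in LZCM and by 3.56 in aSCM; the change of the effect, -1.03 ± 0.192 (SE, adjusted p = 0.000173), was not called with normexp background correction (-0.44, adjusted p = 0.163). Among the antioxidant genes, Sod2, the mitochondrial superoxide dismutase, read 13.75, 13.75 and 13.60 in aSCM at 6 h and 13.79, 13.79 and 13.79 at 24 h, over 11.32, 11.32 and 11.61 and 9.97, 9.83 and 9.79 in LZCM. The LZCM level fell (-1.55 ± 0.0813 (SE, adjusted p = 5.75e-11)), the change in aSCM was not called (0.09 ± 0.0813 (SE, adjusted p = 0.353)), and the difference went from 4.86-fold to 15.2-fold. Slc7a11, the cystine-glutamate exchanger, was not above background in LZCM at either time and was at least 7.04-fold higher at 6 h and at least 1.93-fold at 24 h, 2 lower bounds whose difference gives no size for a loss; its aSCM level fell (-1.87 ± 0.0727 (SE, adjusted p = 1.11e-13)). Txnrd1, thioredoxin reductase, went from 5.11-fold to 2.09-fold.

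Interferon-stimulated genes gave 3 members, Irf7, Oasl and Usp18, among 18 genes with a probe, of which 16 were tested. At 6 h 14 were called higher and 1 lower, and at 24 h 12 higher and 1 lower, with a median difference of 1.26 and then 0.79. A difference of 1 or more was held by 8 of the 16 at 6 h, by 5 at 24 h and by 3 at both. All 3 members fell over time in both media. Usp18, which removes the modifier ISG15 from proteins and dampens interferon signalling, read 9.07, 8.72 and 8.97 against 11.42, 11.27 and 11.13 at 6 h and 7.37, 7.18 and 7.34 against 10.81, 10.80 and 10.69 at 24 h. Its LZCM level fell more (-1.62 ± 0.0915 (SE, adjusted p = 1.35e-10)) than its aSCM level (-0.51 ± 0.0915 (SE, adjusted p = 8.8e-05)), and its effect grew by 1.11 ± 0.129 (SE, adjusted p = 6.97e-07). Irf7, the factor that drives type I interferon genes, went from 3.08-fold to 4.84-fold, a gain of 0.65 ± 0.123 (SE, adjusted p = 0.000191). Oasl, an antiviral protein of the oligoadenylate synthetase family, went from 7.15-fold to 5.13-fold; its change of -0.48 ± 0.145 (SE, adjusted p = 0.00908) was not called with normexp (-0.41, adjusted p = 0.0663) or with unnormalized values (-0.52, adjusted p = 0.0635).

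**Figure D4:**
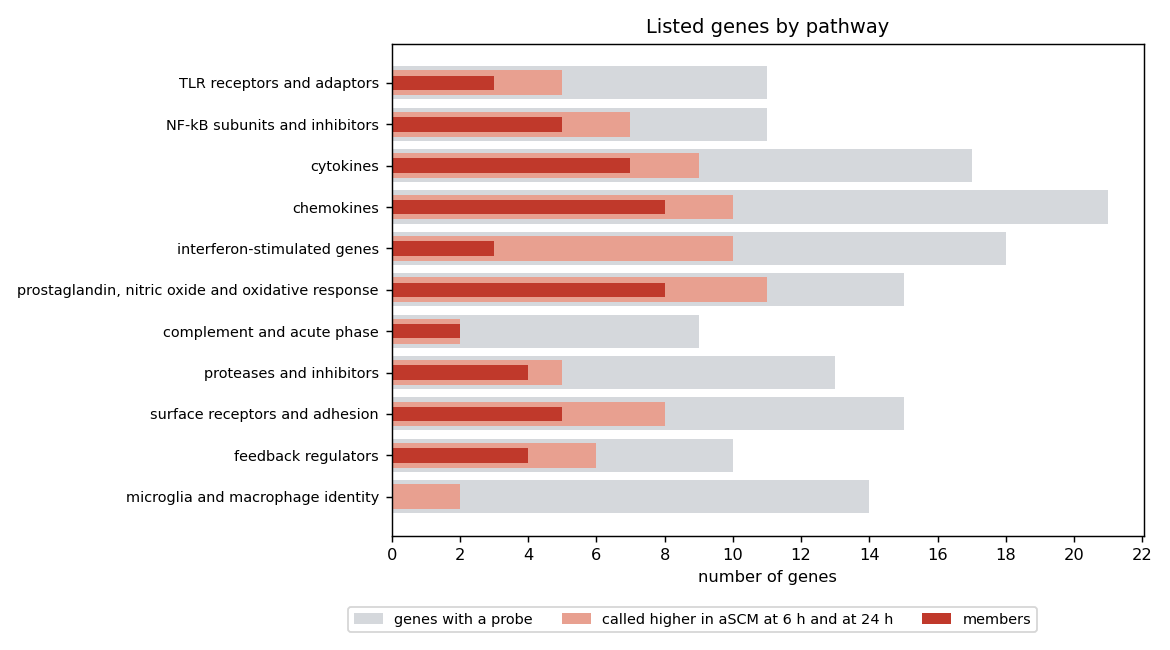
Number of genes with a probe (grey), called higher in aSCM at both times with limma (light red) and members (dark red) in each of 11 gene lists. Members ranged from 8 of 21 chemokines and 8 of 15 prostaglandin, nitric oxide and oxidative response genes to 0 of 14 microglia and macrophage identity genes.

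Matrix metalloproteinases, secreted or membrane-bound enzymes that cut extracellular matrix, were the 4 members of the protease list (13 genes with a probe, 11 tested). Over that list 8 were called higher and 1 lower at 6 h, and 6 higher and 2 lower at 24 h, with a median difference of 0.91 and then 0.28. Mmp9 stood apart from the other 3. It read 10.08, 9.83 and 10.29 in LZCM and 12.64, 12.34 and 11.93 in aSCM at 6 h, and 10.20, 10.24 and 10.23 against 15.11, 15.01 and 15.07 at 24 h. Its aSCM level rose (2.76 ± 0.13 (SE, adjusted p = 1.63e-12)) and its effect grew from 4.70-fold to 28.6-fold, a change of 2.61 ± 0.184 (SE, adjusted p = 9.5e-10). The effects on the others shrank as measured. Mmp12 went from 5.54-fold to 2.47-fold, and Mmp14 from 7.05-fold to 3.86-fold. Mmp3 was at least 10.03-fold higher at 6 h and 6.65-fold at 24 h. Only 1 LZCM array was above background for Mmp3 at 24 h, so its later difference may be understated too. The size of its change is therefore not known.

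Among members with a symbol, the largest gains were those of Upp1, Slpi and Wfdc21, followed by that of the chemokine Ccl12, given above. Upp1, uridine phosphorylase, which splits uridine into uracil and ribose phosphate, read 7.84, 7.95 and 8.07 in LZCM and 9.93, 9.60 and 9.78 in aSCM at 6 h, and 8.34, 8.20 and 8.32 against 14.49, 14.43 and 14.43 at 24 h. The difference went from 3.52-fold to 71.7-fold, the highest of any member at 24 h, and the effect changed by 4.35 ± 0.116 (SE, adjusted p = 3.21e-15). Slpi, a secreted inhibitor of leukocyte elastase, read 7.42, 7.73 and 7.87 against 10.12, 9.96 and 9.58 at 6 h and 7.43, 7.42 and 7.49 against 13.44, 13.52 and 13.34 at 24 h. Its difference went from 4.64-fold to 63.5-fold, a change of 3.77 ± 0.165 (SE, adjusted p = 1.5e-12). Wfdc21, a secreted protein of the same whey acidic protein domain family, was barely inside the rule at 6 h (9.47, 9.14 and 9.77 in LZCM and 10.78, 10.43 and 10.42 in aSCM) and far inside at 24 h (8.01, 7.97 and 8.35 and 12.41, 12.63 and 12.33). It fell in LZCM (-1.35 ± 0.137 (SE, adjusted p = 2.33e-07)) and rose in aSCM (1.91 ± 0.137 (SE, adjusted p = 5.83e-10)).

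Lcn2, lipocalin-2, which starves bacteria of iron, rose in both media. It read 10.01, 9.77 and 10.66 in LZCM at 6 h and 10.54, 10.96 and 10.61 at 24 h, and 12.13, 11.85 and 11.91 in aSCM at 6 h and 14.96, 14.94 and 15.03 at 24 h. The LZCM arrays overlap between the times, and the aSCM arrays do not (0.56 ± 0.157 (SE, adjusted p = 0.00802) in LZCM, 3.01 ± 0.157 (SE, adjusted p = 5.99e-12) in aSCM). Lcn2 and Slpi were the 2 members of the complement and acute phase list, and neither is a complement component. Of its 9 genes with a probe 7 were tested, 3 were higher and 2 lower at 6 h and 5 higher and 1 lower at 24 h, with a median difference of 0.18 and then 0.67.

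Surface molecules gave 5 members, Cd40, Cd44, Cd69, Icam1 and Trem1, among 15 genes with a probe, of which 12 were tested. At 6 h 10 were higher and 0 lower, at 24 h 9 higher and 2 lower, and the median difference was 1.20 and then 0.88. Cd69, an early activation marker of leukocytes, read 8.83, 8.77 and 9.56 in LZCM and 14.26, 14.21 and 14.04 in aSCM at 6 h, and 6.94, 6.80 and 6.93 against 9.79, 9.94 and 9.80 at 24 h. It fell in both media, and its effect went from 34.7-fold to 7.74-fold. Icam1, the adhesion molecule that binds leukocyte integrins, and Cd40, the co-stimulatory receptor, also lost effect, Icam1 from 6.97-fold to 2.20-fold and Cd40 from 13.8-fold to 3.67-fold. Trem1, which amplifies Toll-like receptor signals in myeloid cells, went the other way. It read 8.75, 8.74 and 9.06 against 10.27, 9.89 and 9.81 at 6 h and 8.38, 8.28 and 8.38 against 11.66, 11.75 and 11.74 at 24 h, a gain of 2.23 ± 0.145 (SE, adjusted p = 3.09e-10). The other Trem1 probe fell just short of the rule at 6 h, with differences of 0.93 and 2.71. Cd44, the hyaluronan receptor, gained 0.31 ± 0.0982 (SE, adjusted p = 0.0119), which was not called with cyclic loess (0.17, adjusted p = 0.17) or with unnormalized values (0.40, adjusted p = 0.184).

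The feedback regulators Socs3, Dusp1, Zfp36 and Zc3h12a were members, 4 of 10 genes with a probe; of the 9 tested, 8 were higher and 1 lower at 6 h and 6 higher and 2 lower at 24 h, with a median difference of 1.90 and then 0.77. Socs3 inhibits cytokine receptor signalling, Dusp1 removes phosphate from MAP kinases, and Zfp36 and Zc3h12a promote decay of cytokine messenger RNA. Zc3h12a read 7.21, 7.23 and 7.23 in LZCM and 10.04, 9.90 and 10.09 in aSCM at 6 h, and 6.95, 7.14 and 6.99 against 9.06, 9.05 and 8.95 at 24 h. Its effect, and those on Socs3 and Zfp36, shrank: Zc3h12a went from 6.91-fold to 3.99-fold, Socs3 from 7.09-fold to 4.44-fold and Zfp36 from 3.74-fold to 2.03-fold. Dusp1 alone among the 4 gained, from 2.82-fold to 3.54-fold, with aSCM arrays at 12.15, 12.16 and 12.06 and then 12.54, 12.67 and 12.78; its change of 0.33 ± 0.102 (SE, adjusted p = 0.0109) was not called with unnormalized values (0.49, adjusted p = 0.0831). No gene of the microglia and macrophage identity list was a member; of its 14 genes 2 were higher and 10 lower at 6 h and 4 higher and 6 lower at 24 h, with a median difference of -0.49 and then -0.13.

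Several members outside the lists ranked high. Adora2a, an adenosine receptor that raises cyclic AMP, read 7.35, 7.33 and 7.64 in LZCM and 12.91, 12.87 and 12.26 in aSCM at 6 h, and 7.27, 7.20 and 7.15 against 11.39, 11.41 and 11.41 at 24 h. The third aSCM array at 6 h was lower than the other two, and the groups were still far apart. Hcar2, the receptor for nicotinic acid and beta-hydroxybutyrate, read 7.37, 7.30 and 7.70 against 12.91, 12.78 and 12.79 at 6 h and 6.79, 6.63 and 6.66 against 8.83, 9.12 and 8.77 at 24 h. It was 41.4-fold higher at 6 h and, with LZCM below background, at least 4.01-fold higher at 24 h, a measured change of -3.16 ± 0.142 (SE, adjusted p = 2.3e-12) that may likewise overstate the loss. Akr1b8, an aldo-keto reductase, went from 15.7-fold to 38.9-fold, and its LZCM level fell more (-1.98 ± 0.078 (SE, adjusted p = 1.86e-12)) than its aSCM level (-0.67 ± 0.078 (SE, adjusted p = 4.47e-07)). Birc3, a ubiquitin ligase that protects cells from death signals, was 8.83-fold and then 8.54-fold higher, a change of -0.05 ± 0.153 (SE, adjusted p = 0.822). Plet1 went from 26.05-fold to 10.7-fold. Fcgr2b, the inhibitory Fc receptor, was 1 of the 5 members that rose in LZCM (0.42 ± 0.104 (SE, adjusted p = 0.003)), and its effect shrank from 3.82-fold to 2.59-fold, a change that was not called with unnormalized values (-0.45, adjusted p = 0.121).

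Further members were picked after their values were seen, to show other functions in the set. Among transcription factors, Cebpb, a regulator of inflammatory and acute phase genes, was 4.04-fold and then 4.44-fold higher, Foxp1 was 6.35-fold and then 6.14-fold higher, and both probes of Crem, a factor of the cyclic AMP pathway, were members. Among genes of cell death and survival, Cflar, which blocks caspase-8, went from 24.04-fold to 6.10-fold, Bcl2a1, an anti-apoptotic relative of Bcl2, was 3.998-fold and 3.42-fold higher, and Ripk3, a kinase of necroptosis, went from 2.37-fold to 4.43-fold. Nlrp3, the inflammasome sensor, went from 7.51-fold to 2.32-fold, and Ch25h, which makes 25-hydroxycholesterol, from 24.3-fold to 5.46-fold. The neuropeptide genes Npy and Gal were also members. Npy read 11.43, 11.60 and 11.29 in LZCM and 13.36, 13.43 and 13.49 in aSCM at 6 h, and 11.06, 11.003 and 10.89 against 13.08, 12.98 and 13.02 at 24 h, a 3.97-fold and then a 4.12-fold difference. Cd72, a receptor best known from B cells, went from 2.88-fold to 16.04-fold.

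The 46 members without a symbol had differences of 1.03 to 5.10 at 6 h and of 1.07 to 4.86 at 24 h, with medians of 1.74 and 1.95. Their effect was larger at 24 h for 10, smaller for 21 and not called for 15, against 42, 66 and 31 of the 139 probes with a symbol.

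The change of each member over time within a medium was then tested. The rule does not use this change directly, although the same LZCM and aSCM arrays enter both, so the counts are a description. In LZCM 129 members were lower at 24 h than at 6 h (69.7%; 18.3% of all tested probes) and 5 were higher (2.7%; 18.5% of all tested probes), with a median change of -0.46. In aSCM 131 were lower (70.8%; 27.3% of all tested probes) and 26 were higher (14.1%; 31.3% of all tested probes), with a median change of -0.79. In both media 99 members were lower, and 12 were lower in LZCM but higher in aSCM. The LZCM level was at least 2-fold lower at 24 h for 38 members, the aSCM level for 75 and both for 20, while the aSCM level was at least 2-fold higher for 10.

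**Figure D5:**
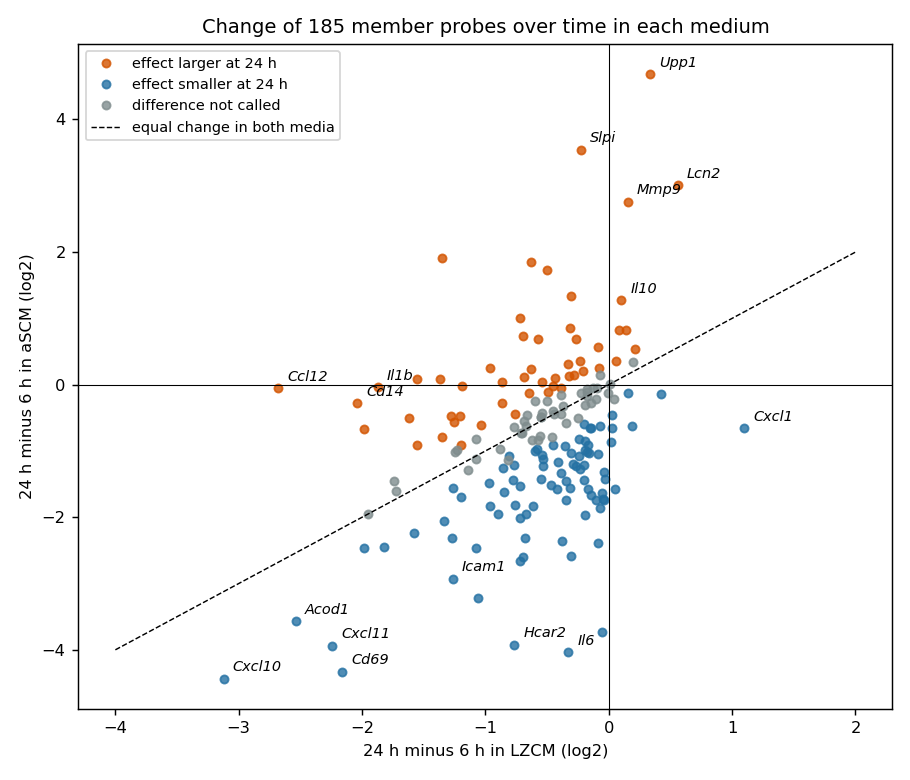
Change from 6 h to 24 h (log2, difference of means of 3 arrays) of each of the 185 member probes in LZCM on the horizontal axis and in aSCM on the vertical axis; colours give the limma call of the change in effect. Most points lie left of 0 and below 0, with Cxcl10 at -3.12 and -4.43; Upp1, Slpi, Lcn2 and Mmp9 lie well above 0 in aSCM alone or mostly, and Ccl12, Il1b and Cd14 moved mainly in LZCM.

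For the 52 members with a larger effect at 24 h, the median difference went from 1.51 to 2.48; 39 were lower over time in LZCM, and in aSCM 25 were higher, 12 lower and 15 not called. For the 87 with a smaller effect, the median difference went from 2.76 to 1.61; 57 were lower over time in LZCM and 85 in aSCM. The median level of all members was 8.85 in LZCM and 11.32 in aSCM at 6 h, and 8.09 and 10.30 at 24 h. Against the probes raised by the rule's size at 1 time alone, the fall in LZCM was called for 39.8% of the 430 raised at 6 h alone and for 70.3% of the 303 raised at 24 h alone. In aSCM a fall was called for 99.8% of those raised at 6 h alone and for 5.94% of those raised at 24 h alone. A rise in aSCM was called for 0% and 86.8% of the same sets. The levels in both media take part in the rule at both times, so these shares are a description.

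A single array stood out in these counts. LZCM array 3 at 6 h was the highest of its 3 for 117 of 185 members (63.2%), against 31.7% of all tested probes. Over all 185 members this array lay a median of 0.14 log2 units above the mean of the other arrays of its group. It is the LZCM value nearest to aSCM for Ptgs2, Cxcl2, Il1a, Ccl4, Il1b, Cxcl1 and Cd69. Without it 189 probes met the rule, 113 of the 185 members were called lower over time in LZCM, and the effect was larger at 24 h for 49 and smaller for 88. For 26 members no LZCM array was above background at 24 h, for 13 none at 6 h and for 12 at neither time. Among the 150 members above background on all 6 LZCM arrays, 49 had a larger effect at 24 h, 61 a smaller one and 40 no call, and 117 were lower over time in LZCM.

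Some members were neighbours on a chromosome: 21 of the 138 genes had another member gene within 200 kb in the GRCr8 annotation, in 9 groups. These were Ccl2, Ccl7 and Ccl12; Ccl3, Ccl4 and Wfdc21; Cxcl10 and Cxcl11; Cxcl1 and Cxcl2; Il1a and Il1b; Mmp3 and Mmp12; Mmp9 and Cd40; Oasl, Oasl2 and Unc119b; and Orai2 and Dtx2. Neighbours did not always share a time course. The effect grew for Il1b and shrank for Il1a, and grew for Mmp9 and shrank for Cd40. It also grew for Ccl3 and Wfdc21 and shrank for Ccl4. The losses of Il1a and Ccl4 were not called under every processing tried. For Il1a, Il1b, Ccl3 and Ccl4 an aSCM signal lay near the array's highest, where differences can be compressed. As measured, the effect shrank for both genes of the Cxcl10 and Cxcl11, Cxcl1 and Cxcl2, and Mmp3 and Mmp12 pairs. For Mmp3 the control signals were near background.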

How the data were processed

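The table that the authors deposited gives each of 22523 probes a signal on each of 12 arrays, with no normalization between arrays. Its log2 scale is inferred from the values, whose maxima per array of 15.56 to 15.93 are close to the log2 ceiling of common scanners. The authors' series matrix of the same arrays, also in log2 units, served as an alternative. R 2.9.1 is listed in the submitters' processing notes, and the sources used here do not give the scanner's software or any background subtraction. Deposited medians ran from 6.77 to 7.19.

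The 12 columns were quantile normalized without background correction, as the rule for members asks. Background was modelled per array as a normal curve at the most frequent signal, as wide as the signals under that peak, and a probe was above it at a one-sided p under 0.05. The 13252 probes above background on at least 3 arrays were tested. Means of the 4 groups were fitted to all 12 arrays with limma 3.58.1 (lmFit, eBayes; R 4.3.3; 8 residual degrees of freedom), and a call is a Benjamini-Hochberg adjusted p under 0.05 within a contrast. Precision is set by the 3 arrays a group, with a median standard error of 0.076 for an effect. The pipeline was tested on simulated data with changes added only to brighter tested probes, so dim signals and the ceiling were not covered. Where no LZCM array of a group was above background, folds are lower bounds against the lowest signal above background on each array.

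Symbols come from GEO's platform annotation: 13793 probes had 1 gene, 0 had several and 8730 none, and 13752 gene IDs were found in RefSeq's GRCr8 table. Sequences are RefSeq's. Named are the 12 members with symbols ranked highest by the lower of their differences, every member in the gene lists, the 4 with the largest gain and the 4 with the largest loss of effect, the 3 largest rises and falls over time in each medium and the 3 probes on each side of the threshold; others are marked as picked later. Members and lists were chosen with earlier results of these data known, so counts over lists carry no test. Alternatives covered background correction, normalization, source table, filter, variance model, thresholds, a replicate block and each array left out.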

Additional observations from a re-analysis of the deposited data

Results flagged for a closer look

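The effect of the medium differed between 6 h and 24 h, by limma's test of the difference itself, for 139 members. It was larger at 24 h for 52 (28.1%, against 26.5% of all tested probes). For 87 it was smaller (47%, against 25.1% of all tested probes). Both effects enter the rule, so these counts are a description. Among those with a symbol, the largest gains were those of Upp1 (4.35), Slpi (3.77), Wfdc21 (3.26) and Ccl12 (2.63), and the largest measured losses those of Il6 (-3.70), Hcar2 (-3.16), Csf3 (-2.30) and Nos2 (-2.27), each as the log2 effect at 24 h minus that at 6 h. No LZCM array was above background at 24 h for Il6, Hcar2 and Nos2, so their later effects are lower bounds. Their losses may be smaller than measured and their order different. For Nos2 only 1 LZCM array was above background at 6 h, so its loss may also be larger. Groups of 3 arrays are too small for the Dixon test of outlying samples, which was not run.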

How the results depend on the processing

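Leaving out each array in turn gave 181 to 189 members, 49 to 53 larger and 83 to 88 smaller effects at 24 h, 113 to 135 members lower and 3 to 6 higher over time in LZCM (3 without LZCM array 2 of 6 h or of 24 h), and 128 to 131 lower and 23 to 26 higher in aSCM. A threshold of 0.58 gave 437 members and a threshold of 2 gave 58. The members' median effect was 2.34 at 6 h and 2.14 at 24 h with normexp background correction (median change -0.12), 2.22 and 1.95 with scaling to the 75th percentile, and 2.15 at 6 h with cyclic loess. With unnormalized values 1 member was called higher over time in LZCM. All 185 members met the rule again with normexp (241 members in all) and with 75th percentile scaling (204), 177 with cyclic loess (186), 180 in the series matrix (186) and 149 with unnormalized values (149). Scaling to the 75th percentile shifted the median difference of all tested probes by 0.13 at 6 h and 0.11 at 24 h, and unnormalized values by -0.12 and -0.08. The change of effect turned its sign for Birc3 with normexp (0.19, adjusted p = 0.474) and for Nfkbiz with cyclic loess (-0.0495, adjusted p = 0.815), neither called in any of these fits; the other counts stayed within 1.5 times, and the calls of named genes that were lost or gained are given in the report, where the cause was not tested. Replicate numbers gave no clear pairing of the arrays. Deviations of same-numbered arrays correlated at -0.108 to 0.281, with 6 of 18 pairs over 0.1. The highest value was that of array 3 in aSCM at 6 h and 24 h. With the number as a replicate block 53 effects were larger and 89 smaller. In that fit 5 members rose and 135 fell over time in LZCM, and 26 rose and 132 fell in aSCM. Dim control signals limit the folds of 27 members to lower bounds at 1 or both times.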
